A study of Mus musculus with 32 samples.

Results

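The genes described here are the Wnt ligands, their receptors and the proteins that modulate them, followed in mouse embryonic fibroblasts (MEFs) that lack Acly. Members were taken by gene symbol: Wnt, Fzd, Sfrp, Dkk, Rspo and Kremen genes, Lgr4, Lgr5 and Lgr6, Lrp5 and Lrp6, Axin1 and Axin2, Lef1, the Tcf7 genes, Wif1, Znrf3, Rnf43, Notum, Nkd1 and Nkd2, Ror1 and Ror2, Ryk, Ctnnb1, Porcn and Wls. The rule found 33 of the 12053 genes in the 1 mM glucose table and 36 of the 12791 genes in the 10 mM glucose table. All 33 were also among the 36, and Dkk3, Fzd6 and Lgr6 were listed in 10 mM only. RefSeq names 66 mouse symbols that match the rule. Of these, 30 were in neither table, among them 15 of the 19 Wnt ligands and the feedback genes Nkd1, Notum and Lgr5. The sources used here do not state how low genes were removed.

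ACLY, ATP-citrate lyase, cleaves citrate to acetyl-CoA in the cytosol and nucleus. Every library came from Acly KO MEFs. Nuc cells expressed mCherry-tagged human ACLY with additional nuclear import sequences, Cyto cells the same protein with a nuclear export sequence, WT cells the tagged protein without either, and KO cells mCherry alone from the same vector. The cells grew in DMEM with 10% CS and pen/strep and then spent 24 h in medium with 1 mM or 10 mM glucose. Each group had 4 libraries, except Cyto in 10 mM glucose with 3, where library 3 was called an anomaly by the submitters and is not analysed here. The labels put all 1 mM libraries in batch 1 and all 10 mM libraries in batch 2, so that medium and batch cannot be told apart. Levels were therefore compared within a medium, and between media only the differences between constructs were compared. No label states that the libraries of 1 group are separate cultures, or that a cell line was derived more than once. The p-values therefore set a difference against the spread between these libraries, which may be technical.

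Wnt proteins are lipid-modified secreted signals. In the canonical branch a Wnt joins a Frizzled receptor to Lrp5 or Lrp6, the destruction complex built on Axin stops degrading beta-catenin, and beta-catenin acts with TCF/LEF factors on target genes. R-spondins held by Lgr receptors amplify the signal by removing the ubiquitin ligases Rnf43 and Znrf3, which otherwise clear Frizzled receptors from the surface, while Sfrp and Dkk proteins block ligand or co-receptor. In fibroblasts Wnt5a is also known to act through Ror1 and Ror2 without beta-catenin.

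The 250 bases before the annotated start are shown for the ligand Wnt11, the feedback gene Axin2 and the receptor Ror2. The levels of these 3 members separated some of the groups by large amounts, those of Axin2 in 1 mM glucose only. They come from RefSeq on build GRCm38.p6, which differs from the build GRCm39 that the submitters' processing notes name. Each is written 5′ to 3′ on the strand of the gene, and capitals mark the TCF/LEF core motif ATCAAAG.
Wnt11, chr7:98834862-98835111 (plus strand): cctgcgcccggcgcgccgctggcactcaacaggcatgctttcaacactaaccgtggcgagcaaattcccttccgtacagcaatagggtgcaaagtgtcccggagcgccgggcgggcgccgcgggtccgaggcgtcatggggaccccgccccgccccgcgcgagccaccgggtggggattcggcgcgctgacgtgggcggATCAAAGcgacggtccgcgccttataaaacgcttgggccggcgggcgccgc
Axin2, chr11:108920099-108920348 (plus strand): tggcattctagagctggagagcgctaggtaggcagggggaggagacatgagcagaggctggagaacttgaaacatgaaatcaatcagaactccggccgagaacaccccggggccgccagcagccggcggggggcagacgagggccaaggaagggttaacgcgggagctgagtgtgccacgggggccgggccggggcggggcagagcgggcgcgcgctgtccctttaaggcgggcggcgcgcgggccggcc
Ror2, chr13:53286125-53286374 (minus strand): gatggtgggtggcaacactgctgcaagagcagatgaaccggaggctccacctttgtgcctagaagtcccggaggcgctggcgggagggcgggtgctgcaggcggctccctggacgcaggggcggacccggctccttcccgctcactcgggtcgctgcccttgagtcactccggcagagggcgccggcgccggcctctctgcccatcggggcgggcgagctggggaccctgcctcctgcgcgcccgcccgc
The motif was searched on both strands, as ATCAAAG and CTTTGAT, in windows that also held the first 50 bases of the transcript. It was found in 3.73% of the 32851 windows of all genes and in 1 of 28 windows of the 21 members that had an entry. That window belongs to the first of the 2 listed starts of Wnt11. A match is a run of letters and not a measured binding site.

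The deposited values are normalized log2 levels, and 2 to the power of the values sums to between 933382 and 1097740 per library. In each medium every KO library had a lower sum than every other library. No counts were given, so the depth behind a value is unknown. A difference between group means is given below as a log2 fold change with its standard error (SE), and a gene is called when limma's test, adjusted over the whole table, gave p under 0.05. Acly, the targeted gene, averaged 8.97 ± 0.08, 10.50 ± 0.07 and 10.57 ± 0.10 in Nuc, Cyto and WT cells, against 5.35 ± 0.10 in KO cells of 1 mM glucose (SD, n = 4 each). Its averages in 10 mM glucose were 9.12 ± 0.12, 9.74 ± 0.13 and 10.21 ± 0.06 in the same order (SD, n = 4, 3 and 4), against 5.87 ± 0.21 in KO cells (n = 4). The log2 fold change of Acly in Nuc against Cyto cells was -1.53 ± 0.07 in 1 mM and -0.62 ± 0.10 in 10 mM glucose (SE), and its part in the differences between constructs was not tested. The constructs carry human ACLY, and the sources used here do not state how its reads were assigned to mouse Acly. The Acly values are therefore only a rough check of the labels and not a measured dose of the constructs. All 10 fibroblast markers looked for were listed and none of 7 epithelial markers was. The summed linear level of the fibroblast markers was 54300 to 59200 in Nuc, 34600 to 37900 in Cyto, 59000 to 67800 in WT and 36900 to 43500 in KO libraries of 1 mM glucose. In 10 mM glucose it was 49900 to 53200 in Nuc, 37400 to 40800 in Cyto, 44900 to 46300 in WT and 26500 to 27600 in KO libraries. Counted gene by gene against KO, 3 of the 10 fibroblast markers rose and 4 fell in Nuc, 1 rose and 7 fell in Cyto and 4 rose and 4 fell in WT cells of 1 mM glucose, with median log2 fold changes of -0.13 for Nuc, -0.38 for Cyto and -0.09 for WT, so the sum and the median differ in sign for Nuc and WT. In 10 mM glucose 6 rose and 2 fell in Nuc, and 6 rose and 4 were not called in both Cyto and WT cells, with medians of 0.89 for Nuc, 0.42 for Cyto and 0.26 for WT. Of 5 macrophage markers 3 were listed, without Ptprc and Adgre1, and their summed level was 2.21 to 3.23 in Nuc, 3.3 to 4.4 in Cyto, 3.04 to 5.22 in WT and 7.41 to 8.86 in KO libraries of 1 mM glucose, and 4.04 to 5.68, 7.28 to 11.5, 4.47 to 6.22 and 9.72 to 11.7 in the same groups of 10 mM. Of 5 endothelial, 5 muscle and 5 neural markers no more than 2, 1 and 1 were listed. Whether these markers bear on the Wnt genes was not tested, and in bulk RNA fewer expressing cells and less RNA per cell cannot be told apart. WT library 2 of 1 mM glucose stood farthest from the rest of its group, with a median absolute log2 difference of 0.316, followed by Nuc library 4 and KO library 1 of 10 mM glucose with 0.244 and 0.214, against 0.0730 to 0.192 for all others. Of 106 called results of the 19 members described by library below, refitted without each of these libraries in turn, 5 were no longer called, and they are named where they occur. Results that were not called were left out of this check, so it cannot show differences that such a library hid.

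The Wnt genes fell more often than they rose against KO cells in 1 mM glucose and rose more often in 10 mM glucose. In 1 mM glucose 6 of 33 members rose and 13 fell in Nuc cells, where 30.5% of all genes rose and 29.5% fell (60% called). In Cyto cells 6 rose and 18 fell, where 31.7% of all genes rose and 33% fell (64.7% called). In WT cells 8 rose and 15 fell, where 29.7% of all genes rose and 28.5% fell (58.2% called). In 10 mM glucose 17 of 36 members rose and 6 fell in Nuc cells, where 22.7% of all genes rose and as many fell (45.3% called). In Cyto cells 12 rose and 5 fell, where 19.6% of all genes rose and 18.9% fell (38.5% called). In WT cells 15 rose and 7 fell, where 20.6% of all genes rose and 20.2% fell (40.8% called). In either direction 57.6%, 72.7% and 69.7% of members were called for Nuc, Cyto and WT in 1 mM glucose and 63.9%, 47.2% and 61.1% in 10 mM. The median log2 fold change of the members was -0.12 for Nuc, -0.31 for Cyto and -0.30 for WT in 1 mM glucose, where the median of all genes was -0.03 for Cyto and nearer to 0 for the others. The members' medians in 10 mM glucose were 0.20 for Nuc, 0.17 for Cyto and 0.14 for WT, where those of all genes were within 0.03 of 0. The 3 comparisons in a medium share the KO libraries, so a deviation of the KO libraries enters all of them. The map of all members by library shows where these differences lie.

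**Figure D1:**
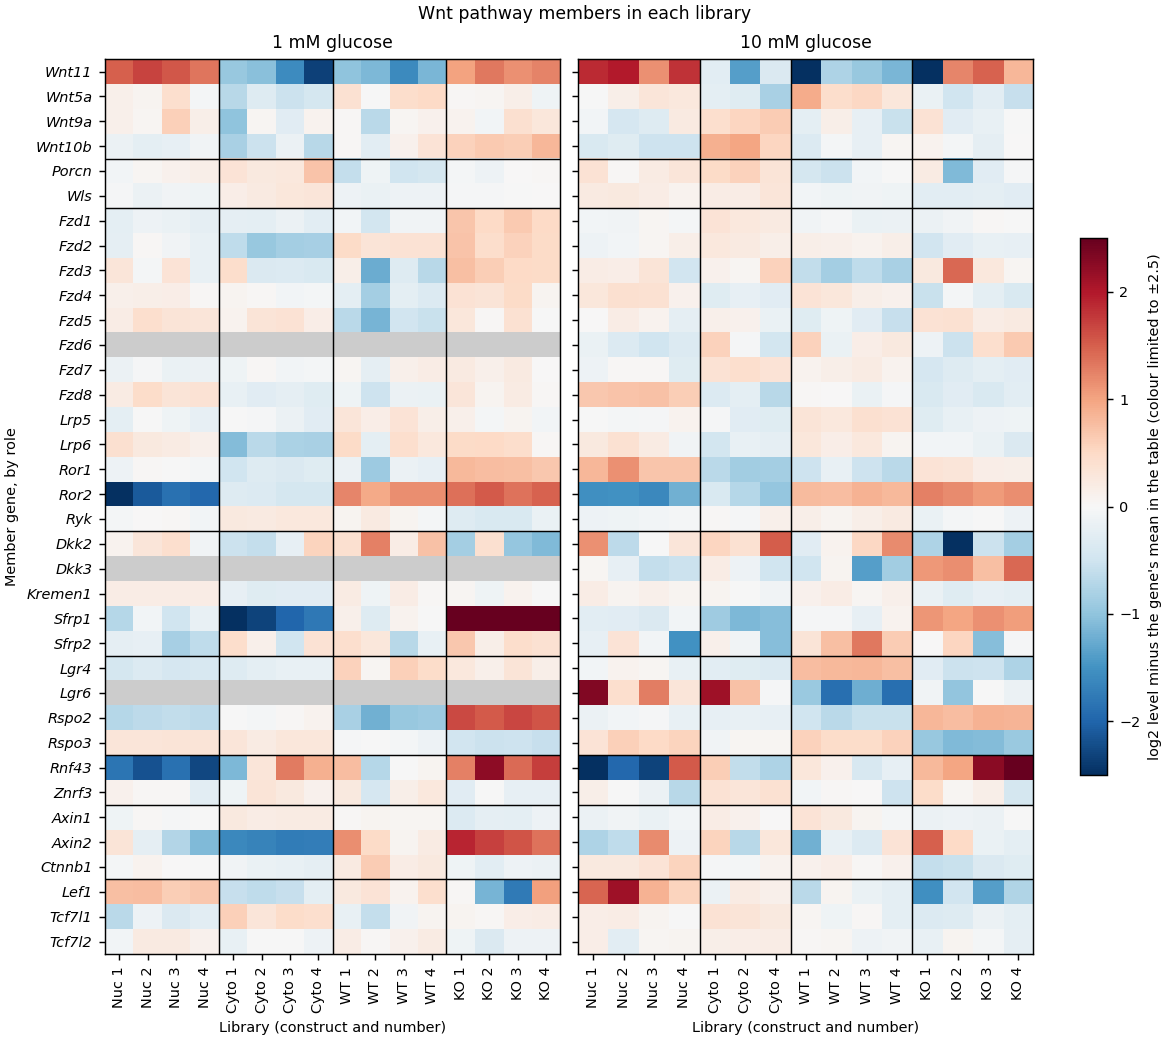
Level of each member in each library of 1 mM glucose (left) and 10 mM glucose (right), as the log2 level minus the gene's mean over the libraries of that table, with members in rows grouped by role and libraries in columns grouped by construct. Grey rows are members that the table does not list. Colours can be compared within a table only; Sfrp1, Rspo2, Axin2 and Rnf43 are red in the KO libraries of 1 mM glucose, and Wnt11 is red in Nuc and blue in Cyto and WT libraries in both tables.

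Among the 4 ligands listed, Wnt11 separated Nuc cells from Cyto and WT cells in both media, and Wnt5a was lowest in Cyto cells on average. Wnt11, a ligand of non-canonical signalling, had levels of 0.88, 1.07, 0.93 and 0.72 in Nuc, -1.56, -1.67, -2.19 and -2.96 in Cyto, -1.63, -1.74, -2.22 and -1.77 in WT and 0.39, 0.69, 0.53 and 0.62 in KO libraries in 1 mM glucose. All Nuc libraries lay above all KO libraries, and both lay above all Cyto and WT libraries, which overlapped. Its log2 fold change against KO was -2.65 ± 0.31 (SE, adjusted p = 1.18e-06) in Cyto and -2.40 ± 0.31 (SE, adjusted p = 6.03e-06) in WT cells, and 0.34 in Nuc cells (adjusted p = 0.363). Nuc cells were 7.96-fold above Cyto cells, at 2.99 ± 0.31 (SE, adjusted p = 9.22e-07). Wnt11 levels in 10 mM glucose were 1.29, 1.40, 0.57 and 1.24 in Nuc, -0.83, -1.96 and -0.94 in Cyto, -3.29, -1.34, -1.53 and -1.72 in WT and -3.29, 0.65, 0.91 and 0.25 in KO libraries. WT library 1 and KO library 1 were at the lowest value of the table, and the KO libraries overlapped with every construct, of which none was called against them. Nuc lay above every Cyto and WT library, at 2.37 ± 0.81 (SE, adjusted p = 0.0358) against Cyto and 3.09 ± 0.75 (SE, adjusted p = 0.0053) against WT cells. The call against Cyto was lost without Nuc library 1, 2 or 4 or Cyto library 1, 2 or 4 (2.01 to 2.57, adjusted p of 0.0586 to 0.13). Adding 1 on the linear scale, which shrinks differences at low levels, gave 1.20 in 1 mM and 1.15 in 10 mM glucose for Nuc against Cyto, -0.99 for Cyto and -0.95 for WT against KO in 1 mM, and 1.32 for Nuc against WT in 10 mM.

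Wnt10b, a canonical ligand known for holding back fat cell formation, fell in Cyto cells of 1 mM glucose and rose in those of 10 mM glucose. Its levels were 1.97, 1.87, 1.91 and 2.04 in Nuc, 1.32, 1.58, 1.98 and 1.42 in Cyto, 2.14, 1.85, 2.22 and 2.47 in WT and 2.70, 2.78, 2.74 and 2.96 in KO libraries in 1 mM glucose. KO libraries were the highest there, and the 3 constructs overlapped below them. The log2 fold changes against KO were -0.85 ± 0.16 in Nuc cells (adjusted p = 0.000171), -1.22 ± 0.16 in Cyto cells (adjusted p = 2.9e-06) and -0.62 ± 0.16 in WT cells (adjusted p = 0.00261). With libraries brought to the same distribution by quantile normalization the WT value was no longer called (-0.32, adjusted p = 0.0742). Its 10 mM levels were 4.03, 4.11, 3.89 and 3.88 in Nuc, 5.30, 5.40 and 4.93 in Cyto, 4.07, 4.36, 4.21 and 4.45 in WT and 4.50, 4.35, 4.17 and 4.40 in KO libraries. Here the Cyto libraries were the highest and all lay above the other groups. Cyto cells rose by 0.85 ± 0.13 (SE, adjusted p = 7.36e-05) against KO, Nuc cells fell by 0.38 (adjusted p = 0.0167) and WT cells differed by -0.08 (adjusted p = 0.612).

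Wnt5a, the ligand of Ror receptors, averaged 5.73 ± 0.20, 5.08 ± 0.15 and 5.91 ± 0.23 in Nuc, Cyto and WT cells, against 5.61 ± 0.10 in KO cells of 1 mM glucose (SD, n = 4 each). Cyto cells fell by 0.53 ± 0.12 (SE, adjusted p = 0.00071) against KO, and Nuc minus Cyto was 0.65 ± 0.12 (SE, adjusted p = 0.000261). The rise in WT cells, 0.30 (adjusted p = 0.0369), was lost without WT library 1, 3 or 4 or KO library 1, 2 or 4 (0.24 to 0.31, adjusted p of 0.0563 to 0.109) and with quantile normalization (0.27, adjusted p = 0.0537). Wnt5a averaged 5.72 ± 0.15, 5.09 ± 0.32 and 6.08 ± 0.28 in Nuc, Cyto and WT cells (SD, n = 4, 3 and 4), against 5.16 ± 0.19 in KO cells (n = 4) of 10 mM glucose. It rose in Nuc cells by 0.55 ± 0.15 and in WT cells by 0.92 ± 0.15, with adjusted p of 0.00601 and 0.000117. Nuc minus Cyto was 0.63 (adjusted p = 0.00675), and it was not called without Cyto library 4 (0.44, adjusted p = 0.0528). Wnt9a, a canonical ligand, was not called against KO in either medium. Nuc minus Cyto for Wnt9a was -0.68 ± 0.24 (SE, adjusted p = 0.0427) in 10 mM glucose, a call lost without Nuc library 1, 2 or 3 or Cyto library 1, 2 or 4 or WT library 1 or 3 (-0.59 to -0.73, adjusted p of 0.0538 to 0.12). Wnt5a and Wnt11 are among 10 members whose exons overlap a gene on the opposite strand in GENCODE on GRCm38, along with Axin2, Ctnnb1, Fzd5, Fzd6, Lef1, Rspo3, Sfrp2 and Tcf7l1. The sources used here do not say whether strand was used, so reads from the stretch that such a pair shares may not be told apart. The length of these stretches was not measured.

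Wls, which carries lipid-modified Wnts to the cell surface, and Porcn, the enzyme that adds the lipid, changed in Cyto cells of both media. In 1 mM glucose both rose in Cyto cells against KO, Wls by 0.26 ± 0.04 (SE, adjusted p = 8.04e-05) and Porcn by 0.42 ± 0.13 (SE, adjusted p = 0.0082). WT cells fell by 0.13 for Wls and by a log2 fold change of -0.38 for Porcn in this medium. The Wls call was lost without KO library 3 or 4 (-0.12, adjusted p of 0.0549 to 0.055), and the Porcn call without WT library 1 (-0.32, adjusted p = 0.0562) and with quantile normalization (-0.08, adjusted p = 0.589). Quantile normalization gave -0.28 for Wls in WT and 0.69 for Porcn in Cyto cells of 1 mM glucose. Wls rose in all constructs of 10 mM glucose, by 0.45 in Nuc, 0.49 in Cyto and 0.17 in WT cells. The WT value had an adjusted p of 0.00788 and was not called with quantile normalization (0.13, adjusted p = 0.0739). Porcn rose in Cyto cells of 10 mM glucose at 0.76 ± 0.25 (SE, adjusted p = 0.0242), a call that was lost without Cyto library 1 or 2 or KO library 2 (0.50 to 0.76, adjusted p of 0.0613 to 0.0823).

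Among receptors called against KO, those that fell outnumbered those that rose in 1 mM glucose, and those that rose outnumbered those that fell in 10 mM glucose, by 3 against 2 in Cyto cells. Of 12 receptors and co-receptors listed in 1 mM glucose, 1 rose and 5 fell in Nuc cells, 1 rose and 9 fell in Cyto cells, and 2 rose and 6 fell in WT cells. Of 13 in 10 mM glucose, 7 rose and 1 fell in Nuc cells, 3 rose and 2 fell in Cyto cells, and 7 rose and 4 fell in WT cells. The share of receptors called in either direction was 50% for Nuc, 83.3% for Cyto and 66.7% for WT, against 60%, 64.7% and 58.2% of all genes, in 1 mM glucose, and 61.5% for Nuc, 38.5% for Cyto and 84.6% for WT, against 45.3%, 38.5% and 40.8% of all genes, in 10 mM. The receptor that rose in every construct of 1 mM glucose was Ryk, a receptor with an inactive kinase domain, by 0.30 in Nuc, 0.56 in Cyto and 0.39 in WT cells. Whether the split between directions differs between constructs was not tested.

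Ror2, a receptor tyrosine kinase-like protein that binds Wnt5a, was the receptor farthest from KO in Nuc cells of both media. In 1 mM glucose its levels were 1.04, 1.71, 1.94 and 1.84 in Nuc, 3.49, 3.47, 3.37 and 3.36 in Cyto, 5.03, 4.74, 4.97 and 4.97 in WT and 5.19, 5.33, 5.17 and 5.28 in KO libraries. The groups stood in the order Nuc, Cyto, WT and KO from low to high with no overlap between neighbours. The log2 fold changes against KO were -3.61 ± 0.15 in Nuc cells (adjusted p = 3.71e-12), -1.82 ± 0.15 in Cyto cells (adjusted p = 1.08e-08) and -0.31 ± 0.15 in WT cells (adjusted p = 0.0749), and Nuc cells were 12.2-fold below KO. Levels in 10 mM glucose were 2.04, 2.06, 1.95 and 2.36 in Nuc, 3.18, 2.86 and 2.60 in Cyto, 4.35, 4.34, 4.44 and 4.38 in WT and 4.83, 4.75, 4.63 and 4.73 in KO libraries. The order was the same, again without overlap. Against KO the log2 fold changes were -2.63 ± 0.13 in Nuc cells (adjusted p = 1.87e-10), -1.86 ± 0.14 in Cyto cells (adjusted p = 5.08e-08) and -0.36 ± 0.13 in WT cells (adjusted p = 0.0393). The WT call was lost without WT library 1, 2, 3 or 4 or KO library 1, 2 or 4 (-0.33 to -0.38, adjusted p of 0.0585 to 0.0868). Nuc minus Cyto was -1.79 ± 0.15 (SE, adjusted p = 4.93e-08) in 1 mM and -0.77 ± 0.14 (SE, adjusted p = 0.00057) in 10 mM glucose.

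Ror1, the other receptor of that pair, fell in every construct except Nuc in 10 mM glucose, where it rose. Its 1 mM levels were 3.92, 4.08, 4.05 and 4.0 in Nuc, 3.54, 3.72, 3.68 and 3.75 in Cyto, 3.90, 3.15, 3.90 and 3.85 in WT and 4.86, 4.82, 4.81 and 4.72 in KO libraries. KO libraries were the highest, and WT library 2 was lower than every other library. All constructs fell, with log2 fold changes of -0.79 ± 0.13 in Nuc cells (adjusted p = 6.43e-05), -1.13 ± 0.13 in Cyto cells (adjusted p = 1.01e-06) and -1.1 ± 0.13 in WT cells (adjusted p = 2.18e-06). Its 10 mM levels were 4.35, 4.65, 4.21 and 4.22 in Nuc, 2.85, 2.64 and 2.66 in Cyto, 3.0, 3.33, 2.99 and 2.84 in WT and 3.85, 3.81, 3.69 and 3.66 in KO libraries. Nuc libraries were all above the KO libraries, and all Cyto and WT libraries were below them. Ror1 rose in Nuc cells by 0.60 ± 0.13 (SE, adjusted p = 0.00155) and fell in the other constructs, at -1.03 ± 0.15 (SE, adjusted p = 3.15e-05) in Cyto and -0.71 ± 0.13 (SE, adjusted p = 0.000479) in WT cells. Nuc minus Cyto was 1.64 ± 0.15 (SE, adjusted p = 3.46e-07) there, and 0.34 in 1 mM glucose (adjusted p = 0.0489), where the call was lost without Nuc library 1, 2, 3 or 4 or Cyto library 1, 2, 3 or 4 or WT library 4 or KO library 1, 2, 3 or 4 (0.30 to 0.37, adjusted p of 0.0514 to 0.119).

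Lrp6, the co-receptor that starts canonical signalling with a Frizzled, was lowest in Cyto cells of 1 mM glucose. Its levels there were 8.08, 7.93, 7.89 and 7.82 in Nuc, 6.60, 7.01, 6.89 and 6.87 in Cyto, 8.17, 7.44, 8.10 and 7.94 in WT and 8.16, 8.18, 8.13 and 7.71 in KO libraries. All Cyto libraries lay below all others, while Nuc, WT and KO libraries overlapped. Cyto cells fell by 1.20 ± 0.14 (SE, adjusted p = 1.04e-06) against KO and stood 2.3-fold below them, and Nuc minus Cyto was 1.09 ± 0.14 (SE, adjusted p = 9.73e-06). Lrp6 levels in 10 mM glucose were 8.19, 8.33, 8.15 and 7.86 in Nuc, 7.49, 7.76 and 7.72 in Cyto, 8.22, 8.10, 8.20 and 8.01 in WT and 7.87, 7.87, 7.77 and 7.59 in KO libraries. WT libraries lay above all KO libraries, Nuc libraries nearly so, and Cyto and KO libraries overlapped. Lrp6 rose there by 0.36 ± 0.10 in Nuc and 0.36 ± 0.10 in WT cells (adjusted p = 0.00566 and 0.00681) and Cyto cells differed from KO by -0.12 (adjusted p = 0.409). Lrp5, its relative, rose in WT cells of both media, by 0.22 in 1 mM and 0.52 in 10 mM glucose. The 1 mM value was not called with quantile normalization (0.12, adjusted p = 0.172), nor without WT library 1 or 3 or KO library 2 or 4 (0.19 to 0.20, adjusted p just above 0.05 and up to 0.0585).

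Fzd2, a receptor also used by Wnt5a, had levels of 7.10, 7.36, 7.24 and 7.15 in Nuc, 6.69, 6.38, 6.48 and 6.49 in Cyto, 7.81, 7.65, 7.69 and 7.68 in WT and 8.04, 7.77, 7.90 and 7.80 in KO libraries in 1 mM glucose. Cyto libraries were the lowest, Nuc libraries stood next without overlap, and WT libraries overlapped with KO. The log2 fold changes against KO were -0.67 ± 0.08 in Nuc cells (adjusted p = 1.38e-06), -1.37 ± 0.08 in Cyto cells (adjusted p = 1.81e-10) and -0.17 ± 0.08 in WT cells (adjusted p = 0.0711). Its 10 mM levels were 7.29, 7.35, 7.46 and 7.55 in Nuc, 7.68, 7.63 and 7.55 in Cyto, 7.55, 7.55, 7.51 and 7.56 in WT and 6.92, 7.12, 7.22 and 7.21 in KO libraries. All libraries of the 3 constructs lay above all KO libraries, and Fzd2 rose by 0.29 ± 0.07 in Nuc cells (adjusted p = 0.00309), 0.50 ± 0.08 in Cyto cells (adjusted p = 8.8e-05) and 0.42 ± 0.07 in WT cells (adjusted p = 0.000203). Fzd1, another Frizzled receptor, fell in each construct of 1 mM glucose, with log2 fold changes of -0.77 in Nuc, -0.81 in Cyto and -0.76 in WT cells, and in 10 mM glucose it rose in Cyto cells by 0.33 ± 0.06 (SE, adjusted p = 0.000433).

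Fzd8, also a Frizzled receptor, was highest in Nuc cells of both media on average. Its 1 mM levels were 6.31, 6.57, 6.43 and 6.47 in Nuc, 5.94, 5.84, 5.89 and 5.80 in Cyto, 6.01, 5.60, 5.96 and 5.95 in WT and 6.42, 6.19, 6.33 and 6.14 in KO libraries. Nuc libraries overlapped with KO libraries, and Cyto and WT libraries lay below both, with WT library 2 the lowest. Both fell, with log2 fold changes of -0.40 in Cyto and -0.38 in WT cells against KO (adjusted p = 0.000783 and 0.00141), and Nuc minus Cyto was 0.58 ± 0.09 (SE, adjusted p = 5.58e-05). The 10 mM levels were 6.50, 6.54, 6.56 and 6.43 in Nuc, 5.49, 5.58 and 5.12 in Cyto, 5.86, 5.83, 5.67 and 5.79 in WT and 5.44, 5.54, 5.44 and 5.57 in KO libraries. Every Nuc library was above every other library. The rise was 1.01 ± 0.09 (SE, adjusted p = 1.27e-07) in Nuc and 0.29 in WT cells (adjusted p = 0.0154), and Nuc minus Cyto was 1.11 ± 0.10 (SE, adjusted p = 2.65e-07).

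Fzd5 and Fzd3, further Frizzled receptors, fell in WT cells of both media. The levels of Fzd5 were 5.06, 5.30, 5.20 and 5.19 in Nuc, 4.98, 5.21, 5.26 and 5.06 in Cyto, 4.21, 3.72, 4.42 and 4.34 in WT and 5.17, 4.92, 5.28 and 4.88 in KO libraries in 1 mM glucose. WT libraries lay below all others, which overlapped. WT cells fell by 0.89 ± 0.13 (SE, adjusted p = 2.25e-05) against KO, and Nuc minus WT was 1.02 ± 0.13 (SE, adjusted p = 1.25e-05). Fzd5 levels in 10 mM glucose were 4.66, 4.84, 4.73 and 4.43 in Nuc, 4.77, 4.75 and 4.49 in Cyto, 4.35, 4.54, 4.37 and 4.07 in WT and 5.0, 5.03, 4.83 and 4.88 in KO libraries. WT libraries lay below all KO libraries, and WT cells fell by 0.60 ± 0.12 (SE, adjusted p = 0.000532) against KO.

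Fzd3, best known from axon guidance and planar polarity, had levels of 4.16, 3.80, 4.20 and 3.67 in Nuc, 4.30, 3.50, 3.51 and 3.48 in Cyto, 4.01, 2.62, 3.54 and 3.16 in WT and 4.61, 4.48, 4.37 and 4.34 in KO libraries in 1 mM glucose. All KO libraries lay above all others, and Cyto library 1 stood above the rest of its group. WT cells fell by 1.12 ± 0.24 (SE, adjusted p = 0.000758) and Cyto cells fell by 0.76 ± 0.24 (SE, adjusted p = 0.0107) against KO. Nuc minus WT was 0.62 ± 0.24 (SE, adjusted p = 0.0486), and it was not called without 12 of the 16 libraries in turn, lowest at 0.38 (adjusted p = 0.149) without WT library 2. Fzd3 levels in 10 mM glucose were 3.76, 3.75, 3.89 and 3.10 in Nuc, 3.68, 3.61 and 4.14 in Cyto, 2.96, 2.73, 2.94 and 2.76 in WT and 3.82, 5.01, 3.84 and 3.62 in KO libraries. WT libraries lay below all others, and KO library 2 stood above the rest of the table. WT cells fell by 1.23 ± 0.25 (SE, adjusted p = 0.00102) against KO there.

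Fzd4 and Fzd7, the remaining Frizzled receptors in both tables, moved by smaller amounts. Fzd4 in WT cells of 1 mM glucose fell by 0.73 ± 0.12 (SE, adjusted p = 5.39e-05) and its log2 fold change in Cyto cells was -0.31 (adjusted p = 0.0279), a call lost without Cyto library 3 or 4 or KO library 1, 2 or 3 (-0.25 to -0.31, adjusted p of 0.0522 to 0.0929). It rose in 10 mM glucose by 0.60 in Nuc and 0.53 in WT cells. Fzd7 rose in all constructs of 10 mM glucose, by 0.22 in Nuc, 0.68 in Cyto and 0.44 in WT cells, and the Nuc value was not called without Nuc library 2 or 3 or KO library 1 (0.18 to 0.19, adjusted p of 0.0604 to 0.0768). In 1 mM glucose its averages lay below KO instead, at 6.43 ± 0.07, 6.50 ± 0.06 and 6.59 ± 0.18 in Nuc, Cyto and WT cells, against 6.70 ± 0.10 (SD, n = 4 each). Fzd6, listed in 10 mM glucose only, was not called in any comparison.

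**Figure D2:**
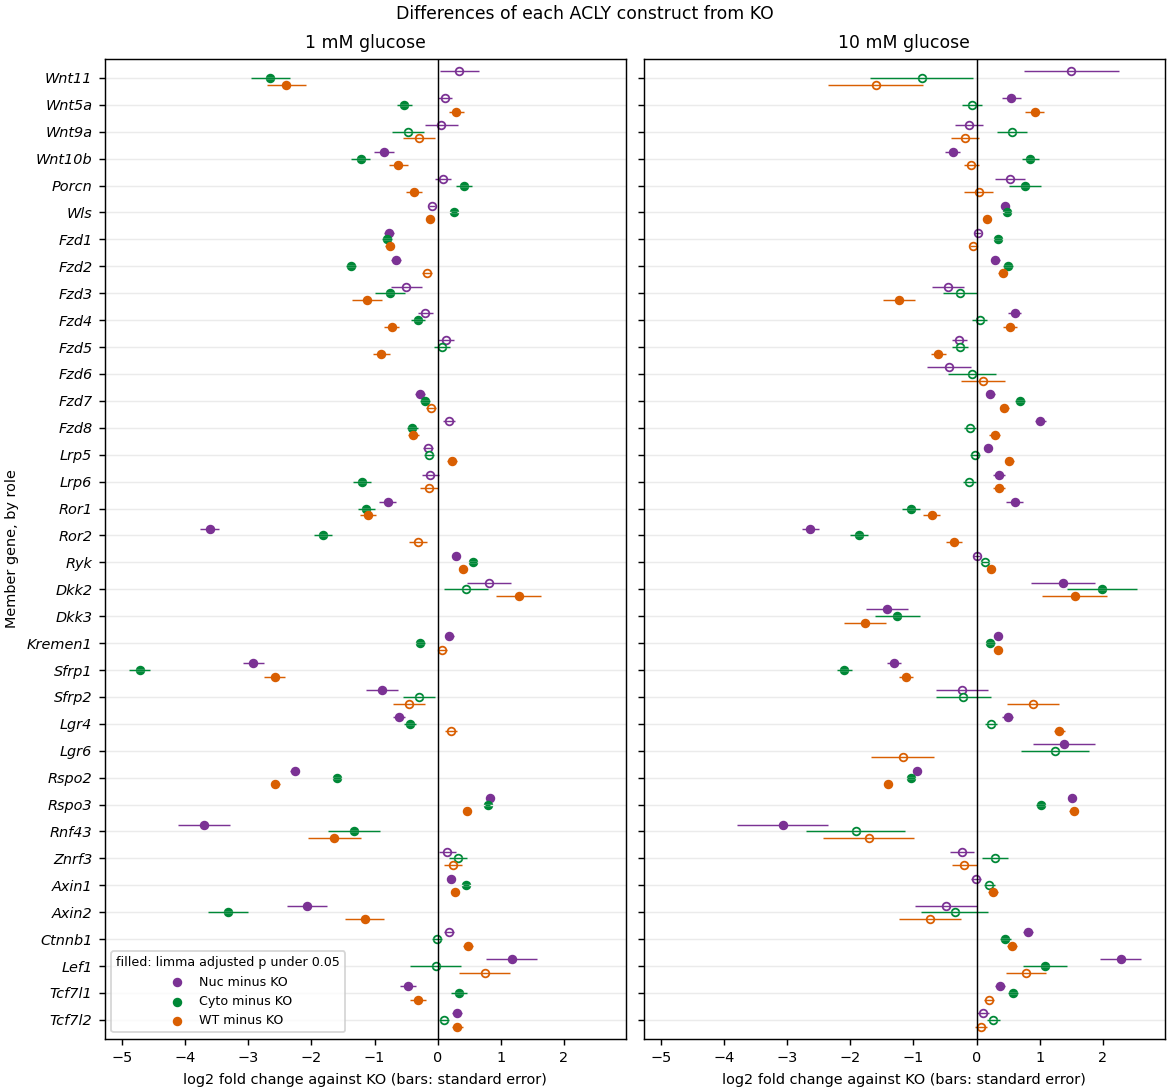
Log2 fold change of each member against KO in Nuc, Cyto and WT cells of 1 mM glucose (left) and 10 mM glucose (right), with bars for the standard error and filled points where limma's adjusted p was under 0.05. Sfrp1 in Cyto cells of 1 mM glucose lies farthest left, at -4.72, and Rspo2 is left of 0 and Rspo3 right of 0 for every construct in both media.

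Sfrp1, a secreted protein that binds Wnts and keeps them from Frizzled receptors, fell in every construct, most of all in Cyto cells. Its levels were 2.23, 2.87, 2.43 and 2.76 in Nuc, 0.36, 0.62, 0.95 and 1.16 in Cyto, 3.07, 2.61, 3.03 and 2.93 in WT and 5.60, 5.44, 5.50 and 5.44 in KO libraries in 1 mM glucose. KO libraries were the highest, Nuc and WT libraries overlapped below them, and Cyto libraries were the lowest without overlap. The log2 fold changes against KO were -2.92 ± 0.17 in Nuc cells (adjusted p = 3.25e-10), -4.72 ± 0.17 in Cyto cells (adjusted p = 1.18e-12) and -2.58 ± 0.17 in WT cells (adjusted p = 2.42e-09), so that Cyto cells stood 26.4-fold below KO. Its 10 mM levels were 3.39, 3.35, 3.28 and 3.57 in Nuc, 2.75, 2.52 and 2.58 in Cyto, 3.61, 3.61, 3.43 and 3.73 in WT and 4.75, 4.62, 4.78 and 4.68 in KO libraries. The order of the groups was the same with Nuc and WT overlapping, and log2 fold changes were -1.31 ± 0.11 in Nuc cells (adjusted p = 7.44e-08), -2.10 ± 0.12 in Cyto cells (adjusted p = 2.09e-09) and -1.12 ± 0.11 in WT cells (adjusted p = 7.4e-07). Nuc minus Cyto was 1.80 ± 0.17 (SE, adjusted p = 3.06e-07) in 1 mM and 0.78 ± 0.12 (SE, adjusted p = 9.81e-05) in 10 mM glucose.

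Among the Dkk genes, Dkk2 varied widely between libraries of some groups. Dkk2, which binds Lrp5 and Lrp6, had levels of 0.27, 0.48, 0.59 and 0.08 in Nuc, -0.35, -0.41, -0.02 and 0.74 in Cyto, 0.58, 1.44, 0.37 and 0.91 in WT and -0.68, 0.57, -0.80 and -0.93 in KO libraries in 1 mM glucose. WT cells rose by 1.28 ± 0.35 (SE, adjusted p = 0.005) against KO although KO library 2 lay among the WT levels. With 1 added on the linear scale the value was 0.66. Dkk2 levels in 10 mM glucose were 1.09, -0.71, -0.07 and 0.24 in Nuc, 0.49, 0.32 and 1.45 in Cyto, -0.33, 0.04, 0.46 and 1.13 in WT and -0.82, -2.62, -0.59 and -0.90 in KO libraries. KO libraries were the lowest on average, KO library 2 most of all, and only Nuc libraries overlapped with them. Dkk2 rose by 1.37 ± 0.51 in Nuc cells (adjusted p = 0.0378), 1.99 ± 0.55 in Cyto cells (adjusted p = 0.00918) and 1.56 ± 0.51 in WT cells (adjusted p = 0.0227). The Nuc call was lost without Nuc library 1, 3 or 4 or KO library 2 (0.91 to 1.44, adjusted p of 0.0548 to 0.132) and the WT call without WT library 3 or 4 or KO library 2 (1.09 to 1.51, adjusted p of 0.051 to 0.0782). The Cyto call was lost without Cyto library 4 (1.64, adjusted p = 0.0553). Adding 1 on the linear scale gave 0.55, 0.89 and 0.64 in Nuc, Cyto and WT cells, the Nuc value no longer called (adjusted p = 0.0722).

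Dkk3, a divergent member of the Dkk family, was listed in 10 mM glucose with levels of 0.39, 0.14, -0.25 and -0.19 in Nuc, 0.52, 0.21 and -0.15 in Cyto, -0.15, 0.40, -1.02 and -0.52 in WT and 1.42, 1.5, 1.09 and 1.77 in KO libraries. Every KO library lay above every other library. It fell, with log2 fold changes of -1.42 ± 0.33 in Nuc cells (adjusted p = 0.00226), -1.25 ± 0.36 in Cyto cells (adjusted p = 0.011) and -1.77 ± 0.33 in WT cells (adjusted p = 0.000466). The Cyto call was lost without Cyto library 4 (-1.08, adjusted p = 0.0515), and with 1 added on the linear scale the values were -0.88, -0.79 and -1.03 in Nuc, Cyto and WT cells. Kremen1, a receptor for Dkk proteins, rose in all constructs of 10 mM glucose, by 0.34 in Nuc, 0.22 in Cyto and 0.35 in WT cells, the Cyto call being lost without Cyto library 1 or 2 or KO library 2 (0.18 to 0.22, adjusted p of 0.0518 to 0.0877). Kremen1 in Cyto cells of 1 mM glucose fell by 0.27 ± 0.07 (SE, adjusted p = 0.00218). Sfrp2, a relative of Sfrp1, was called once against KO, at -0.88 ± 0.26 (SE, adjusted p = 0.00667) in Nuc cells of 1 mM glucose.

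The 2 R-spondins listed moved in opposite directions in every construct. Rspo2 and Rspo3 are secreted agonists that raise Wnt responses through Lgr receptors. Rspo2 had levels of 5.92, 5.98, 6.01 and 5.97 in Nuc, 6.61, 6.59, 6.65 and 6.71 in Cyto, 5.82, 5.43, 5.68 and 5.73 in WT and 8.28, 8.17, 8.30 and 8.19 in KO libraries in 1 mM glucose. KO libraries were far above the rest, and no 2 groups overlapped. It fell, with log2 fold changes of -2.26 ± 0.07 in Nuc cells (adjusted p = 2.51e-13), -1.60 ± 0.07 in Cyto cells (adjusted p = 8.69e-12) and -2.57 ± 0.07 in WT cells (adjusted p = 4.31e-14). Its 10 mM levels were 6.21, 6.29, 6.32 and 6.18 in Nuc, 6.15, 6.17 and 6.15 in Cyto, 5.86, 5.68, 5.81 and 5.79 in WT and 7.18, 7.12, 7.24 and 7.21 in KO libraries. KO libraries were again highest and WT libraries lowest, with Nuc and Cyto libraries close together between them. Rspo2 fell there with log2 fold changes of -0.94 ± 0.06 in Nuc cells (adjusted p = 2.52e-09), -1.03 ± 0.06 in Cyto cells (adjusted p = 4.51e-09) and -1.40 ± 0.06 in WT cells (adjusted p = 3.72e-11), and Nuc minus Cyto was 0.10 (adjusted p = 0.281), against -0.67 ± 0.07 (SE, adjusted p = 1.04e-06) in 1 mM glucose. These calls against KO held in every alternative run.

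Rspo3 levels were 8.30, 8.32, 8.33 and 8.32 in Nuc, 8.30, 8.21, 8.28 and 8.29 in Cyto, 7.97, 8.0, 7.96 and 7.88 in WT and 7.54, 7.47, 7.49 and 7.44 in KO libraries in 1 mM glucose. KO libraries were lowest and WT libraries next, without overlap, and Nuc and Cyto libraries overlapped above them. It rose by 0.83 ± 0.04 in Nuc cells (adjusted p = 9.55e-11), 0.79 ± 0.04 in Cyto cells (adjusted p = 1.5e-10) and 0.47 ± 0.04 in WT cells (adjusted p = 1.43e-07). The 10 mM levels were 7.69, 7.94, 7.86 and 7.90 in Nuc, 7.26, 7.39 and 7.39 in Cyto, 7.92, 7.81, 7.81 and 7.93 in WT and 6.39, 6.25, 6.26 and 6.43 in KO libraries. KO libraries were lowest and Cyto libraries next, and Nuc and WT libraries overlapped at the top. Rspo3 rose there by 1.51 ± 0.07 in Nuc cells (adjusted p = 4.34e-11), 1.01 ± 0.07 in Cyto cells (adjusted p = 2.46e-08) and 1.54 ± 0.07 in WT cells (adjusted p = 4.47e-11). Nuc minus Cyto was 0.50 ± 0.07 (SE, adjusted p = 6.08e-05) in this medium and 0.04 (adjusted p = 0.462) in 1 mM glucose. The calls against KO held in every alternative run within each table.

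Lgr4, the R-spondin receptor listed in both media, was highest in WT cells on average. Its 1 mM levels were 5.97, 6.07, 6.01 and 6.02 in Nuc, 6.10, 6.18, 6.24 and 6.23 in Cyto, 6.99, 6.46, 7.01 and 6.87 in WT and 6.68, 6.53, 6.73 and 6.57 in KO libraries. Nuc and Cyto libraries were below all KO libraries, and WT library 2 lay below the KO libraries while the other 3 WT libraries lay above them. Nuc cells fell by 0.61 ± 0.09 (SE, adjusted p = 2.92e-05) and Cyto cells fell by 0.44 ± 0.09 (SE, adjusted p = 0.000546), and the WT value was 0.20 (adjusted p = 0.0725). Lgr4 levels in 10 mM glucose were 6.50, 6.66, 6.62 and 6.38 in Nuc, 6.31, 6.27 and 6.23 in Cyto, 7.35, 7.38, 7.39 and 7.32 in WT and 6.29, 6.04, 6.05 and 5.80 in KO libraries. WT libraries lay above all others. Lgr4 rose by 1.31 ± 0.09 (SE, adjusted p = 7.88e-09) in WT and 0.49 ± 0.09 (SE, adjusted p = 0.000211) in Nuc cells, and Cyto cells differed from KO by 0.22 (adjusted p = 0.0711).

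Lgr6, a second R-spondin receptor, was listed in 10 mM glucose with levels of 2.72, 0.84, 1.70 and 0.71 in Nuc, 2.53, 1.14 and 0.38 in Cyto, -0.52, -1.46, -0.81 and -1.46 in WT and 0.33, -0.58, 0.40 and 0.27 in KO libraries. Nuc and Cyto libraries varied widely, and all of them lay above all WT libraries. Nuc minus WT was 2.56 ± 0.50 (SE, adjusted p = 0.001) and Cyto minus WT was 2.41 ± 0.54 (SE, adjusted p = 0.00254). Against KO the Nuc value was 1.39 (adjusted p = 0.0312), and it was not called without Nuc library 1 or 3 or KO library 2 (0.98 to 1.32, adjusted p of 0.0711 to 0.122). With 1 added on the linear scale the 3 values were 1.40, 1.30 and 0.90.

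**Figure D3:**
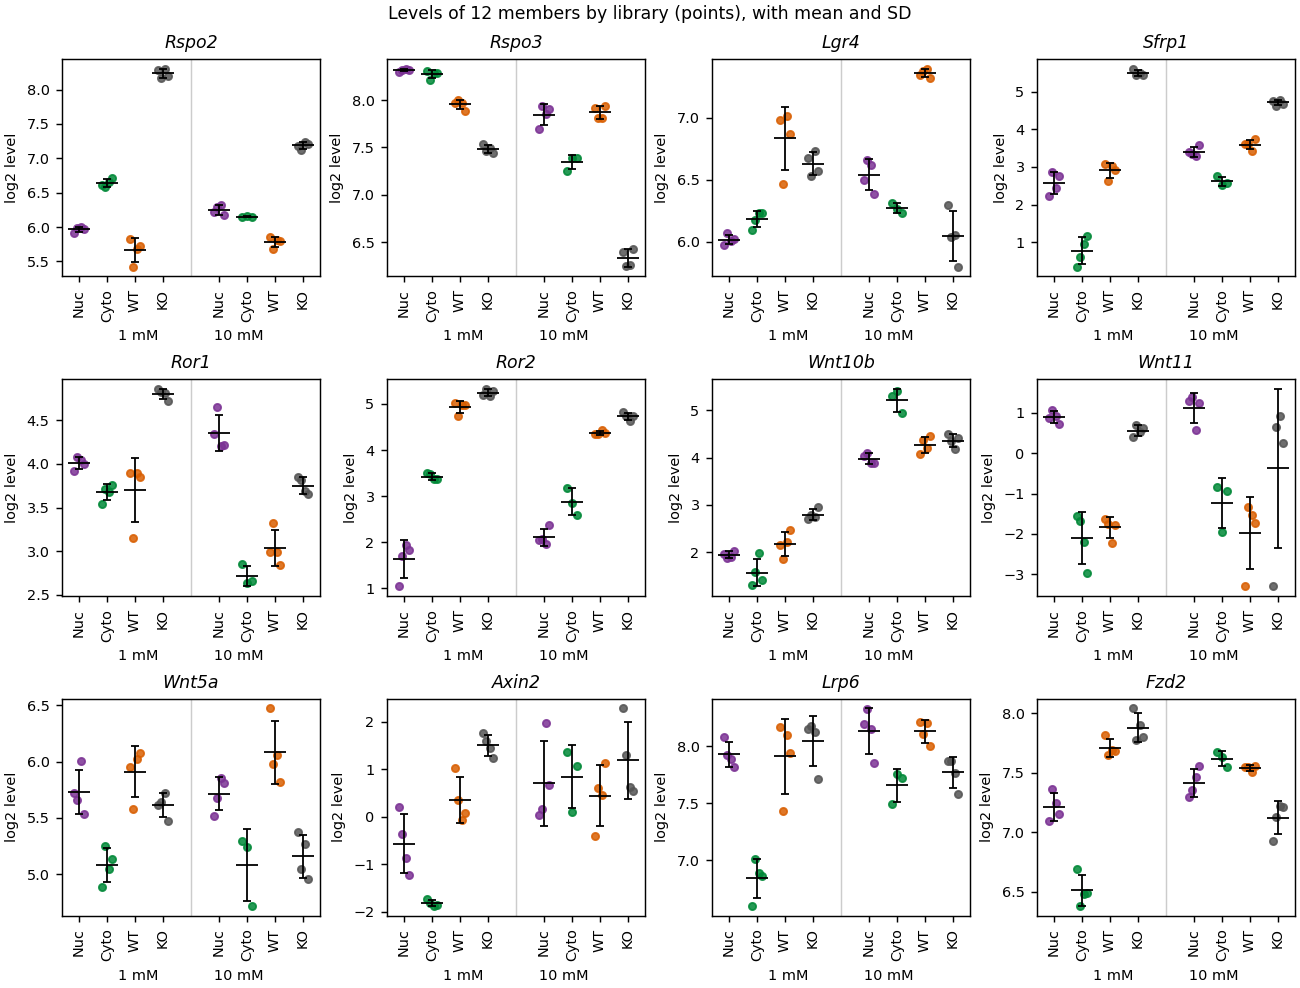
Log2 level of 12 members in each library (points) of the Nuc, Cyto, WT and KO groups, with the group mean (bar) and SD (whiskers), for 1 mM glucose on the left and 10 mM glucose on the right of each panel. The 2 media were normalised separately and are not to be compared by height. KO points lie above all others for Rspo2 and Sfrp1 and below all others for Rspo3 in both media.

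Rnf43, a ubiquitin ligase that removes Frizzled receptors and is itself a target of the canonical branch, was lowest in Nuc cells. Its levels in 1 mM glucose were -0.74, -1.1, -0.77 and -1.18 in Nuc, -0.03, 1.39, 2.38 and 1.97 in Cyto, 1.87, 0.37, 1.08 and 1.15 in WT and 2.35, 3.33, 2.51 and 2.82 in KO libraries. Nuc libraries lay below every other library, and KO libraries were the highest apart from an overlap with Cyto library 3. It fell, with log2 fold changes of -3.70 ± 0.42 in Nuc cells (adjusted p = 8.78e-07), -1.32 ± 0.42 in Cyto cells (adjusted p = 0.0103) and -1.64 ± 0.42 in WT cells (adjusted p = 0.00294), and without Cyto library 1 the Cyto value was -0.84. Its 10 mM levels were -1.78, -0.83, -1.19 and 2.65 in Nuc, 1.74, 0.50 and 0.34 in Cyto, 1.41, 1.24, 0.73 and 0.91 in WT and 1.94, 2.11, 3.38 and 3.69 in KO libraries. Nuc library 4 stood among the KO levels, and the other 3 Nuc libraries were below all remaining libraries. The Nuc value was -3.07 ± 0.72 (SE, adjusted p = 0.00238) with this library and -4.05 without it. With 1 added on the linear scale the Nuc values were -2.35 in 1 mM and -1.90 in 10 mM glucose. The Cyto and WT values in 10 mM were -1.92 and -1.71 (adjusted p = 0.0631 and 0.0699). Znrf3, its paralogue, was not called in any within-table comparison.

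Axin2, a scaffold of the destruction complex and a feedback target of canonical signalling, fell in all constructs of 1 mM glucose and was not called in 10 mM. Its 1 mM levels were 0.20, -0.35, -0.87 and -1.23 in Nuc, -1.74, -1.80, -1.87 and -1.85 in Cyto, 1.04, 0.36, -0.06 and 0.08 in WT and 1.77, 1.59, 1.45 and 1.24 in KO libraries. KO libraries were the highest and Cyto libraries the lowest, without overlap, and Nuc and WT libraries overlapped between them. Against KO it fell with log2 fold changes of -2.07 ± 0.31 in Nuc cells (adjusted p = 2.52e-05), -3.33 ± 0.31 in Cyto cells (adjusted p = 8.35e-08) and -1.16 ± 0.31 in WT cells (adjusted p = 0.00464), which put Cyto cells 10.0-fold below KO. With 1 added on the linear scale these values were -1.18, -1.59 and -0.75, and with quantile normalization the WT value was not called (-0.69, adjusted p = 0.0819). The 10 mM levels of Axin2 were 0.03, 0.16, 1.98 and 0.66 in Nuc, 1.36, 0.09 and 1.07 in Cyto, -0.40, 0.60, 0.46 and 1.14 in WT and 2.28, 1.30, 0.63 and 0.55 in KO libraries. All groups overlapped, and the values against KO were -0.48 in Nuc, -0.35 in Cyto and -0.74 in WT cells, with adjusted p of 0.456, 0.643 and 0.247. Of Axin2, Axin1 and Ctnnb1, the difference between media was called for 2 for Nuc, 3 for Cyto and 0 for WT against KO. All genes gave 36.5%, 44.7% and 26.2% in that order. For Axin2 in WT cells a difference between media is therefore not shown.

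Axin1, the constitutive scaffold, rose in each construct of 1 mM glucose, by 0.20 in Nuc, 0.45 in Cyto and 0.28 in WT cells. The Nuc value was not called with quantile normalization (0.12, adjusted p = 0.0872). WT cells of 10 mM glucose also rose, by 0.26 (adjusted p = 0.0149), a call lost without WT library 1 or 2 (0.20 to 0.23, adjusted p of 0.0513 to 0.0613). Ctnnb1, which encodes beta-catenin, rose in all constructs of 10 mM glucose, by 0.81 in Nuc, 0.46 in Cyto and 0.55 in WT cells. WT cells of 1 mM glucose rose by 0.49 ± 0.08 (SE, adjusted p = 6.18e-05), and Nuc and Cyto values were 0.18 and -0.01 (adjusted p = 0.0634 and 0.959). With quantile normalization the WT values were 0.16 in 1 mM and 0.35 in 10 mM glucose.

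Lef1, a transcription factor that binds beta-catenin and is itself a known target of the pathway, was highest in Nuc cells on average. Its levels were 1.60, 1.61, 1.47 and 1.52 in Nuc, 0.28, 0.22, 0.28 and 0.61 in Cyto, 1.1, 1.19, 0.94 and 1.27 in WT and 0.88, -0.32, -0.92 and 1.87 in KO libraries in 1 mM glucose. Nuc libraries lay above all Cyto and WT libraries, while KO libraries spanned the levels of every other group. The Nuc value against KO was 1.17 ± 0.41 (SE, adjusted p = 0.0192), and it was not called without KO library 2 or 3 (0.74 to 0.94, adjusted p of 0.0689 to 0.0786). The 10 mM levels of Lef1 were 3.04, 3.71, 2.46 and 2.15 in Nuc, 1.44, 1.79 and 1.71 in Cyto, 0.93, 1.67, 1.42 and 1.35 in WT and 0.07, 1.1, 0.22 and 0.84 in KO libraries. Every Nuc library lay above every other library. Lef1 rose by 2.28 ± 0.32 (SE, adjusted p = 2.25e-05) in Nuc and 1.09 ± 0.35 (SE, adjusted p = 0.0202) in Cyto cells, and the Cyto call was lost without Cyto library 2 or 4 or KO library 1 or 3 (0.92 to 1.06, adjusted p of 0.0526 to 0.0674). 

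Tcf7l1, a TCF factor known mainly as a repressor, was lower in Nuc cells of 1 mM glucose, at -0.48 ± 0.13 (SE, adjusted p = 0.00378), and rose in 10 mM glucose by 0.37 in Nuc and 0.58 in Cyto cells. Its WT value in 1 mM glucose, -0.32 (adjusted p = 0.0405), was not called without WT library 1 or 2 or KO library 1, 3 or 4 (-0.19 to -0.33, adjusted p of 0.0593 to 0.133). Its Cyto value there, 0.33 (adjusted p = 0.0291), was not called without Cyto library 1 or 3 or KO library 1 or 2 (0.28 to 0.33, adjusted p of 0.0568 to 0.0847). Tcf7l2, another TCF factor, rose in Nuc and WT cells of 1 mM glucose, by 0.31 and 0.31.

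Nuc and Cyto cells carry the same enzyme with opposite localization sequences, and 10 of 33 members were higher and 8 lower in Nuc than in Cyto cells of 1 mM glucose, where 20.4% of all genes were higher and 20.5% lower (41% called). Of 36 members in 10 mM glucose 12 were higher and 5 lower, where 15.3% of all genes were higher and 15.7% lower (31% called). The members' median log2 fold change was 0.12 in 1 mM and -0.09 in 10 mM glucose, and that of all genes was within 0.03 of 0. Wnt11, Sfrp1, Lrp6, Fzd8, Wnt5a, Lef1 and Ror1 were higher and Ror2 was lower in Nuc cells of both media. Of these calls, those of Ror1 in 1 mM and of Wnt11 and Wnt5a in 10 mM glucose were lost without single libraries, as given above. For Rnf43 Nuc minus Cyto was -2.38 ± 0.42 (SE, adjusted p = 0.000209) in 1 mM glucose, and in 10 mM the value was -1.15 (adjusted p = 0.29). Nuc library 4 of 10 mM glucose, at 2.65, lay above every Cyto library. All other Nuc libraries, at -1.78 to -0.83, lay below the Cyto libraries, at 0.34 to 1.74. The missing call in 10 mM glucose therefore does not show that the difference is absent there. The Lef1 differences were 1.20 in 1 mM and 1.19 in 10 mM glucose, and both calls depended on single libraries. The first was lost without Nuc library 1 or 2 or Cyto library 1, 2 or 3 (1.16 to 1.19, adjusted p of 0.0502 to 0.0552) and with quantile normalization (1.04, adjusted p = 0.0635), and the second without Nuc library 2 or Cyto library 1 (0.90 to 1.09, adjusted p of 0.0515 to 0.0607). For Axin2 Nuc minus Cyto was 1.25 ± 0.31 (SE, adjusted p = 0.00407) in 1 mM glucose, or 0.41 with 1 added on the linear scale. The level listed for Acly was lower in Nuc than in Cyto cells, with the limit given above.

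**Figure D4:**
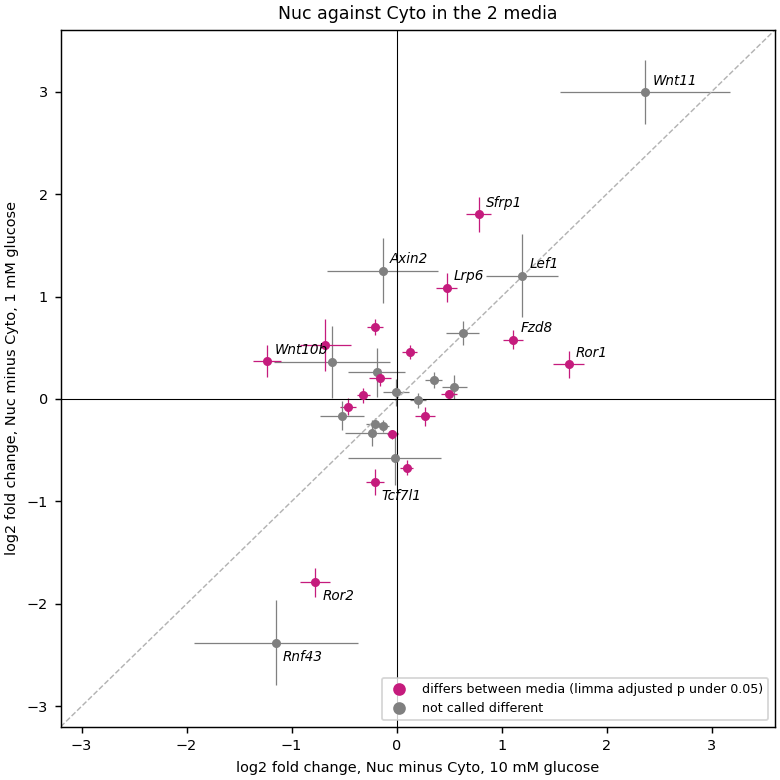
Log2 fold change of Nuc against Cyto cells for the 33 members in both tables, in 1 mM glucose (vertical axis) and 10 mM glucose (horizontal axis), with standard errors as bars. Pink points are members whose difference differed between media by limma's adjusted p under 0.05, the dashed line marks equal values, and members past 0.75 in either medium are named. Wnt11 lies at the upper right and Ror2 and Rnf43 at the lower left, and Wnt10b and Ror1 lie far from the dashed line.

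Against WT cells, 8 of 33 members were higher and 7 lower in Nuc cells of 1 mM glucose, where 19.7% of all genes were higher and 19.4% lower (39.1% called). In Cyto cells 9 were higher and 12 lower, where 25.7% of all genes were higher and 27.5% lower (53.2% called). Of 36 members in 10 mM glucose 10 were higher and 6 lower in Nuc cells, where 15% of all genes were higher and 13.8% lower (28.8% called), and 11 were higher and 9 lower in Cyto cells, where 15.9% were higher and 15.6% lower (31.5% called). The log2 fold change of Cyto against WT cells in 1 mM glucose was -2.17 ± 0.31 (SE, adjusted p = 2.09e-05) for Axin2, -2.14 ± 0.17 (SE, adjusted p = 2.49e-08) for Sfrp1 and -1.51 ± 0.15 (SE, adjusted p = 2.31e-07) for Ror2. With 1 added on the linear scale the Axin2 value was -0.84. Nuc minus WT was -3.30 ± 0.15 (SE, adjusted p = 2.78e-11) in 1 mM and -2.27 ± 0.13 (SE, adjusted p = 3.88e-09) in 10 mM glucose for Ror2, and -0.82 and -0.82 for Lgr4. Rspo2 was above WT in both, by 0.31 in Nuc and 0.98 in Cyto cells of 1 mM glucose and by 0.46 and 0.37 in 10 mM.

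The differences from KO were compared between media over the 11931 genes in both tables. For Nuc against KO, 1 of 33 members had a higher and 17 a lower fold change in 1 mM than in 10 mM glucose, where 17.8% of all genes were higher and 18.7% lower (36.5% in all). For Cyto against KO 2 were higher and 14 lower, where all genes gave 21.5% and 23.2% (44.7% in all). In WT cells against KO 0 were higher and 17 were lower, where all genes gave 13.5% and 12.7% (26.2% in all). For WT against KO limma's test gave an unadjusted p under 0.05 for 18 members, all lower. The members' median differences were -0.63, -0.45 and -0.42 in the same order, and those of all genes -0.02, -0.03 and -0.02. Other lists were counted alike, as higher and lower for Nuc, Cyto and WT against KO. The 10 fibroblast markers gave 0 and 8, 0 and 8, and 0 and 5. The 15 other surface and secreted regulators gave 1 and 10, 2 and 9, and 2 and 4. The 29 destruction complex and transducer genes gave 0 and 9, 2 and 6, and 1 and 3. The 16 planar polarity and non-canonical genes gave 1 and 4, 1 and 5, and 3 and 4. The 11 TCF/LEF targets gave 5 and 4, 4 and 3, and 6 and 2. Nuc against Cyto was balanced, with 9 members higher and 8 lower, where 9.47% and 9.48% of all genes were called (19% in all). All of these comparisons set 1 batch against another, and KO libraries enter 3 of them, so they do not separate a response to glucose from a difference between batches.

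All 3 amplifiers in both tables, Rspo2, Rspo3 and Lgr4, had lower fold changes in 1 mM glucose in each of the 4 comparisons. For Rspo2 the difference was -1.33 ± 0.09 (SE, adjusted p = 2.22e-12) for Nuc against KO, with -2.26 in 1 mM and -0.94 in 10 mM glucose. For Fzd2 it was -1.87 ± 0.11 (SE, adjusted p = 1.2e-13) for Cyto against KO, with -1.37 in 1 mM and 0.50 in 10 mM glucose. For Lgr4 it was -1.11 ± 0.13 (SE, adjusted p = 2.43e-07) for WT against KO, with 0.20 in 1 mM and 1.31 in 10 mM glucose. Of 12 receptors, 1 was higher and 9 lower for Nuc against KO, 1 higher and 4 lower for Cyto, and 0 higher and 7 lower for WT. The share of receptors called between media was 83.3% for Nuc, 41.7% for Cyto and 58.3% for WT, against 36.5%, 44.7% and 26.2% of all genes. The receptor with the higher values was Ryk, at 0.29 ± 0.08 (SE, adjusted p = 0.00487) for Nuc and 0.42 ± 0.08 (SE, adjusted p = 0.000133) for Cyto against KO.

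Genes of the pathway outside the symbol rule were counted in 4 lists. All 29 genes of the destruction complex and its transducers were listed in both tables. In 1 mM glucose 5 rose and 10 fell in Nuc, 9 rose and 9 fell in Cyto and 6 rose and 10 fell in WT cells. The 10 mM counts were 6 up and 6 down in Nuc, 9 up and 4 down in Cyto and 5 up and 6 down in WT cells. The share called was 51.7% for Nuc, 62.1% for Cyto and 55.2% for WT, against 60%, 64.7% and 58.2% of all genes, in 1 mM glucose, and 41.4% for Nuc, 44.8% for Cyto and 37.9% for WT, against 45.3%, 38.5% and 40.8% of all genes, in 10 mM. The list's median log2 fold changes were 0.00 for Nuc, -0.14 for Cyto and -0.07 for WT in 1 mM and 0.12 for Nuc, 0.10 for Cyto and 0.03 for WT in 10 mM glucose. Tle1, a co-repressor bound by TCF factors, rose by 2.16 in Nuc, 1.90 in Cyto and 2.05 in WT cells in 1 mM and 1.80 in Nuc, 1.46 in Cyto and 1.52 in WT cells in 10 mM glucose. Pygo1, a beta-catenin co-activator, fell with log2 fold changes of -2.19 in Nuc, -0.73 in Cyto and -2.10 in WT cells in 1 mM glucose, and in 10 mM the values were -1.36 in Nuc, -0.32 in Cyto and -1.62 in WT cells, of which the Cyto value was not called (adjusted p = 0.216). Csnk1e, a casein kinase of the pathway, rose in Cyto cells by 0.64 in 1 mM and 0.84 in 10 mM glucose, and Dvl2, which relays the signal from Frizzled, fell with log2 fold changes of -0.54 in Nuc, -0.34 in Cyto and -0.44 in WT cells in 1 mM.

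Of 28 other surface and secreted regulators, 16 were listed in 1 mM glucose, where 2 rose and 9 fell in Nuc, 1 rose and 9 fell in Cyto and 1 rose and 9 fell in WT cells. The 10 mM table listed 15, with 5 up and 5 down in Nuc, 4 up and 4 down in Cyto and 6 up and 6 down in WT cells. The share called was 68.8% for Nuc, 62.5% for Cyto and 62.5% for WT, against 60%, 64.7% and 58.2% of all genes, in 1 mM glucose, and 66.7% for Nuc, 53.3% for Cyto and 80% for WT, against 45.3%, 38.5% and 40.8% of all genes, in 10 mM. The medians were -0.42 for Nuc, -0.42 for Cyto and -0.28 for WT in 1 mM and 0.02 for Nuc, 0.04 for Cyto and 0.00 for WT in 10 mM glucose. Trabd2b, a protease that inactivates Wnts, fell with log2 fold changes of -0.36 in Nuc, -0.46 in Cyto and -0.39 in WT cells in 1 mM and -0.61 in Nuc, -1.28 in Cyto and -0.83 in WT cells in 10 mM glucose. Shisa4, a member of a family of membrane adaptors, fell with log2 fold changes of -0.71 in Nuc, -1.15 in Cyto and -1.06 in WT cells in 1 mM glucose. The glypican Gpc1, a cell-surface proteoglycan, fell by 0.40 in Nuc cells and rose by 1.20 in Cyto cells of 10 mM glucose, and Gpc4, another glypican, fell with log2 fold changes of -0.74 in Nuc, -0.18 in Cyto and -0.57 in WT cells in 1 mM.

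Of 19 planar polarity and non-canonical genes, 16 were listed in each table. Of these, 4 rose and 4 fell in Nuc, 2 rose and 5 fell in Cyto and 3 rose and 4 fell in WT cells of 1 mM glucose. The 10 mM counts were 3 up and 2 down in Nuc, 3 up and 3 down in Cyto and 5 up and 1 down in WT cells. The share called was 50% for Nuc, 43.8% for Cyto and 43.8% for WT, against 60%, 64.7% and 58.2% of all genes, in 1 mM glucose, and 31.2% for Nuc, 37.5% for Cyto and 37.5% for WT, against 45.3%, 38.5% and 40.8% of all genes, in 10 mM. The medians were 0.11 for Nuc, -0.10 for Cyto and 0.02 for WT in 1 mM and 0.14 for Nuc, 0.09 for Cyto and 0.18 for WT in 10 mM glucose. Ptk7, a co-receptor of planar polarity, fell with log2 fold changes of -0.49 in Nuc, -0.54 in Cyto and -0.59 in WT cells in 1 mM and -0.60 in Nuc, -0.19 in Cyto and -0.81 in WT cells in 10 mM glucose. Daam2, a formin that works with Dishevelled, fell with log2 fold changes of -1.33 in Nuc, -1.5 in Cyto and -1.06 in WT cells in 1 mM glucose and had -1.56 in Cyto cells of 10 mM. Prickle1, a planar polarity protein, fell by 0.68 in Cyto cells and rose by 0.89 in WT cells of 1 mM glucose. Nfatc4, a calcium-regulated transcription factor, fell there with log2 fold changes of -1.09 in Nuc, -1.41 in Cyto and -0.31 in WT cells.

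Of 16 genes known as TCF/LEF targets in other cells, 11 were listed in 1 mM glucose, where 5 rose and 6 fell in Nuc, 5 rose and 2 fell in Cyto and 4 rose and 3 fell in WT cells. The 10 mM table listed 12, with 5 up and 4 down in Nuc, 4 up and 4 down in Cyto and 6 up and 4 down in WT cells. The share called was 100% for Nuc, 63.6% for Cyto and 63.6% for WT, against 60%, 64.7% and 58.2% of all genes, in 1 mM glucose, and 75% for Nuc, 66.7% for Cyto and 83.3% for WT, against 45.3%, 38.5% and 40.8% of all genes, in 10 mM. The medians were -0.23 for Nuc, 0.16 for Cyto and -0.10 for WT in 1 mM and -0.07 for Nuc, 0.25 for Cyto and 0.21 for WT in 10 mM glucose. Ccnd1, which encodes cyclin D1, fell with log2 fold changes of -0.23 in Nuc, -1.12 in Cyto and -0.91 in WT cells in 1 mM and -0.54 in Nuc, -0.52 in Cyto and -1.18 in WT cells in 10 mM glucose. Ccn4, a secreted matricellular protein, rose by 0.88 in Nuc, 0.67 in Cyto and 0.78 in WT cells in 1 mM and 0.83 in Nuc, 1.58 in Cyto and 0.35 in WT cells in 10 mM glucose. Fosl1, an AP-1 factor, rose in Cyto cells of 1 mM glucose by 1.98 ± 0.14 (SE, adjusted p = 2.41e-09) and in WT cells of 10 mM fell by 1.78 ± 0.21 (SE, adjusted p = 5.56e-06). Plaur, the urokinase receptor, rose by 1.11 in Nuc, 1.23 in Cyto and 0.88 in WT cells in 1 mM glucose.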

How the data were processed

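RNA was measured by RNA sequencing in Acly KO mouse embryonic fibroblasts carrying 4 constructs in 1 mM or 10 mM glucose. The authors deposited 1 table of log2 values per medium, in which 2 to the power of the values sums to between 933382 and 1097740 per library. The submitters' processing notes name kallisto, edgeR, limma and build GRCm39, with no role or version. No counts were analysed, so the depth behind a value is unknown, and no count test was run.

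Each table was fitted across all its genes in limma 3.58.1 under R 4.3.3, with 1 mean per group, a mean-variance trend and no covariates. P-values were adjusted by Benjamini-Hochberg over the whole table, separately for each comparison, and a gene was called at an adjusted p under 0.05. Differences between media were tested as interactions in a fit of both tables together over their 11931 shared genes. No value was imputed, and entries without a gene name, 0.00820% to 0.0383% of the linear total, were left out. The fit was also run on simulated data with normal noise independent between libraries. That run does not cover deviations that libraries share or values at the lowest level of a table. Genes described by library were the members called with a fold change of at least 2 in at least 1 comparison within a table, which gave 19, and from each of the other Wnt lists up to 4 genes with the smallest adjusted p were named. Members, lists and rules were chosen with earlier results of these data known. Alternatives were a fit without the trend, equal library medians, quantile normalization, log2 of the linear value plus 1, a filter at a mean of 0, a replicate block, the 2 groups of a comparison alone, and leaving out each library or all libraries numbered 4. Sequences come from RefSeq and exon overlaps from GENCODE M21, both on GRCm38. Figures were drawn in matplotlib 3.10.9.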

Additional observations from a re-analysis of the deposited data

Results flagged for a closer look

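Of 125 groups of 4 libraries tested among the members described by library, 9 held a library that stood apart from the other 3 by Dixon's test, and chance gives about 1 in 20. In 10 mM glucose KO library 2 stood at -2.62 for Dkk2, 5.01 for Fzd3 and -0.58 for Lgr6, and KO library 1 at -3.29 for Wnt11 (log2 levels). In 1 mM glucose WT library 2 stood at 5.60 for Fzd8 and 3.15 for Ror1. Cyto library 1 stood at 4.30 for Fzd3, Cyto library 4 at 0.61 for Lef1, and KO library 4 at 7.71 for Lrp6, also in 1 mM glucose.

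The log2 fold changes of several members differed between media, as 1 mM minus 10 mM glucose, by the interaction in limma over both tables, with up to 6 members given per comparison. For Nuc against KO the differences were -1.33 for Rspo2 (adjusted p = 2.22e-12), -0.54 for Wls (adjusted p = 2.86e-08), -0.68 for Rspo3 (adjusted p = 3.62e-08), -0.96 for Fzd2 (adjusted p = 3.73e-08), -1.11 for Lgr4 (adjusted p = 1.19e-07) and -0.79 for Fzd1 (adjusted p = 1.75e-07).

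For Cyto against KO they were -1.87 for Fzd2 (adjusted p = 1.2e-13), -2.63 for Sfrp1 (adjusted p = 6.2e-11), -1.14 for Fzd1 (adjusted p = 2.65e-10), -2.07 for Wnt10b (adjusted p = 2.05e-09), -0.89 for Fzd7 (adjusted p = 2.05e-07) and -0.56 for Rspo2 (adjusted p = 1.1e-05).

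For WT against KO they were -1.07 for Rspo3 (adjusted p = 3.21e-11), -1.17 for Rspo2 (adjusted p = 8.61e-11), -1.11 for Lgr4 (adjusted p = 2.43e-07), -1.26 for Fzd4 (adjusted p = 8.54e-07), -0.71 for Fzd1 (adjusted p = 1.85e-06) and -1.47 for Sfrp1 (adjusted p = 3.01e-06). For Nuc against Cyto they were -0.76 for Rspo2 (adjusted p = 3.53e-07), 0.91 for Fzd2 (adjusted p = 5.09e-07), 1.61 for Wnt10b (adjusted p = 7.48e-07), -1.30 for Ror1 (adjusted p = 9.64e-06), -0.46 for Rspo3 (adjusted p = 8.21e-05) and -1.02 for Ror2 (adjusted p = 0.000486). The comparisons against KO share the KO libraries, and medium and batch cannot be told apart.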

How the results depend on the processing

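Under the alternatives run, no called value of a member changed sign and every count of members called stayed within 1.5 times its value. In 1 mM glucose the counts over all alternatives were 18 to 25 for Nuc, 21 to 26 for Cyto and 20 to 24 for WT against KO, 15 to 22 for Nuc against Cyto, and 13 to 17 for Nuc and 19 to 24 for Cyto against WT. In 10 mM glucose they were 19 to 24, 14 to 20 and 20 to 26 against KO, 12 to 18 for Nuc against Cyto, and 13 to 18 and 16 to 22 against WT. For differences between media they were 16 to 20, 15 to 19 and 14 to 17 against KO, and 14 to 18 for Nuc against Cyto. Of 120 calls in 1 mM glucose 98 held under every alternative, of 115 in 10 mM glucose 86, and of 68 between media 55. Most lost calls were lost by leaving out 1 library, and the causes were not tested. Quantile normalization ended 14 calls in 1 mM and 2 in 10 mM glucose and 5 between media, and leaving out all libraries numbered 4 ended 13 in 10 mM glucose and 6 between media. With a replicate block 23 members were called for WT against KO, 23 for Cyto against KO and 20 for Nuc against KO in 1 mM glucose, and 24, 20 and 24 in 10 mM. The block ended 5 of 120 calls in 1 mM glucose, 4 of 115 in 10 mM and 1 of 68 between media. The numbers were not taken as pairs in the main fit, which has no term for a deviation that libraries of the same number share. Deviations from the group mean correlated between libraries with the same number at -0.182 to 0.136 (median 0.00142, 24 pairs) in 1 mM and -0.0255 to 0.359 (median 0.0523, 21 pairs) in 10 mM glucose. Libraries with different numbers gave -0.21 to 0.297 (median 0.000818, 72 pairs) in 1 mM and -0.226 to 0.129 (median -0.0125, 63 pairs) in 10 mM glucose. In 10 mM glucose 4 same-numbered pairs lay above all of these, with 0.359 for Nuc and KO, 0.232 for Nuc and WT and 0.157 for WT and KO libraries numbered 4, and 0.185 for Nuc and KO libraries numbered 1. Depth cannot be read from these log2 values, and low members such as Wnt11, Axin2, Rnf43, Dkk2, Dkk3, Lef1 and Lgr6 depend most on the offset.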
